A study of Mus musculus with 6 samples.

Results

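The genes of glycolysis and of the response to low oxygen were followed across 6 mammary tumours of mice that carried the MMTV-PyMT transgene. The set was a list of 37 gene symbols covering oxygen sensing, sugar and lactate transport, the glycolytic enzymes, regulators of glycolytic flux and genes induced by hypoxia. No rule on measured values picked its members, but earlier results of these data were known when the list was chosen. Each gene was read from the probe set with its highest mean over the 6 arrays, among probe sets annotated to 1 gene. Of the 37, 34 had such a probe set, out of 19938 genes that had one in all, and all 34 passed the filter on low signal that left 14953 genes for testing. The other 3 were Gpi1 and Eno1, for which no probe set was named, and Gapdh, named only by 25 probe sets that also name other genes.

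All 6 tumours came from 15-week-old MMTV-PyMT+ females of the FVB strain, so the control tumours carry the transgene too. In this model the mammary tumour virus promoter drives the polyoma middle T oncoprotein mainly in mammary epithelium. There were 3 tumours from mice injected intraperitoneally with DPM at 10 mg/kg and 3 from mice injected with vehicle, on a schedule of 5 days with and 2 days without injection over 11 weeks from the age of 4 weeks. The labels abbreviate the drug. From knowledge of the study it is taken as dipyridamole, which blocks nucleoside carriers and phosphodiesterases. The arms held 10 DPM and 7 vehicle mice, and the labels do not say which mouse or gland each tumour was from, so p-values measure the spread between these tumours. RNA came from solid tissue outside necrotic areas, and necrotic areas were left out. Of the epithelial markers of the labelled tissue, Krt8, a luminal keratin, was at a log2 intensity of 13.47 ± 0.04 (SD, n = 3) under DPM and 13.56 ± 0.21 (SD, n = 3) under vehicle, and Epcam, an epithelial adhesion molecule, was at 11.52 ± 0.10 and 11.56 ± 0.13. Of the 8 luminal epithelial markers, 2 had the higher mean under DPM and 6 the lower. Their log2 differences, DPM minus vehicle, ran from -0.42 for Krt19 to 0.32 for Elf5 (limma adjusted p = 0.9996 each). In Elf5 all DPM tumours were above all vehicle tumours, as in 3.49% of all genes tested. The 8 markers summed to intensities of 36864 to 39573 under DPM and 35066 to 41824 under vehicle. The basal epithelial markers summed to 4953 to 6431 under DPM and 7343 to 8873 under vehicle, without overlap, and no test was made of these sums. The part of basal cells in the results below was not tested.

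Glycolysis splits glucose into pyruvate in the cytosol, and lactate dehydrogenase turns pyruvate into lactate, which monocarboxylate transporters export. When oxygen falls, prolyl hydroxylases stop marking the HIF alpha subunits for destruction, and the stabilised subunits pair with ARNT and switch on genes for glucose uptake, glycolysis, blood vessel growth and acid handling. This control acts mainly on the HIF proteins, so the RNA of the target genes reads the pathway more directly than the RNA of the subunits. Mammary carcinomas often use both programmes, and many glycolytic enzymes are themselves HIF targets.

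HIF binds DNA at short sites with the core ACGTG or GCGTG, and the bases before the starts of the listed genes were searched for these cores. In the 250 bases before RefSeq transcript starts (build GRCm38.p6), ACGTG was searched on both strands, so that CACGT on the printed strand also counts and a CACGTG counts on each strand. It was found at 21 of 47 starts of the 33 listed genes with an entry (44.7%), against 16.6% of 32851 starts in the whole table. GCGTG was found at 53.2% of the members' starts and 28.2% of all. By role, ACGTG was at 9 of 28 starts of glycolytic enzymes (32.1%) and 5 of 9 of hypoxia-induced genes (55.6%). The shares were not adjusted for base composition. Starts of 1 gene can share bases, and a match is a description of the letters, not evidence of a bound site. Among glycolytic and hypoxia-induced genes Ldha had most matches, and 5 others shared the next count of 2. Ldha and the 3 of those first by symbol are shown, with Hk2 taken before Pfkm and Pgk1, because they carry the motif in genes of both kinds: Ldha (lactate dehydrogenase A, chr7:46845554-46845803, plus strand, 5 matches), Ankrd37 (an ankyrin repeat gene, chr8:45999851-46000100, minus strand, 2 matches), Bnip3 (a mitophagy receptor, chr7:138909507-138909756, minus strand, 2 matches from 1 CACGTG) and Hk2 (hexokinase 2, chr6:82774455-82774704, minus strand, 2 matches). Capitals mark the matches, and each line runs 5′ to 3′ towards the start.
Ldha: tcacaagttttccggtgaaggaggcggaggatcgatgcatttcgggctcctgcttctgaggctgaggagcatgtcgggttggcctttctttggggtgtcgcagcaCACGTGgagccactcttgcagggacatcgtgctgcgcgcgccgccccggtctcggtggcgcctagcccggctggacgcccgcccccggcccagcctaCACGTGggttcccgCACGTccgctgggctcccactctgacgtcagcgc
Ankrd37: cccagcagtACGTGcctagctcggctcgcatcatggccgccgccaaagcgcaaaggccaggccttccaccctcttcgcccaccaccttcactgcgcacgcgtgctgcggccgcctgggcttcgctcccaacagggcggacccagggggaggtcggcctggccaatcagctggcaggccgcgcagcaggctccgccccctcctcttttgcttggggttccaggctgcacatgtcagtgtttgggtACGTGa
Bnip3: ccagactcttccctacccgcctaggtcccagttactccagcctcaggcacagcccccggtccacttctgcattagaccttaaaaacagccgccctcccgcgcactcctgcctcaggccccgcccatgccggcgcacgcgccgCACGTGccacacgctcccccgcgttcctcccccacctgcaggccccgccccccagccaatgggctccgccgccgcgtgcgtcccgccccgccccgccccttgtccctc
Hk2: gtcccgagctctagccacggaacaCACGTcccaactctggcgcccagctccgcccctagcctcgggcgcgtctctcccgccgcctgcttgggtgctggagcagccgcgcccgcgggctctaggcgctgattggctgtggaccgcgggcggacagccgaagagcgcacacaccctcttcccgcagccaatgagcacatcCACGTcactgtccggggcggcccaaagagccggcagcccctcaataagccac
The matches of Ldha lay between 34 and 145 bases before the start shown, and its other start in RefSeq had 0 matches of ACGTG. The 4 genes did not share an order of tumours. Hk2 and Ankrd37 were highest in DPM tumour 3 and lowest in DPM tumour 2, and Ldha was highest in vehicle tumour 1 and lowest in vehicle tumour 2.

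No member of the list passed the test between DPM and vehicle tumours, and as a group the members sat close to no difference. Each difference below is the DPM mean less the vehicle mean of quantile-normalised log2 intensity, tested with limma across all 14953 genes and adjusted by the Benjamini-Hochberg method at a threshold of 0.05. That test called 0 genes of all (0%; smallest adjusted p = 0.676) and 0 of the 34 members, each with a limma adjusted p of 0.9996. Without adjustment 578 genes had p under 0.05 (3.87%), 2 of them members, Ndrg1 and Pdk1 (5.88%). Of the 34, 18 had the higher mean under DPM and 16 the lower, with a median difference of 0.01, against 0.00055 over all genes. The 95% intervals stayed closer to 0 than 1 log2 unit for all 34 and closer than 0.5 for 21, with bounds from -0.81 to 0.77 over the members. In bulk tumour RNA, fewer cells of a type and less RNA per cell cannot be told apart.

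**Figure D1:**
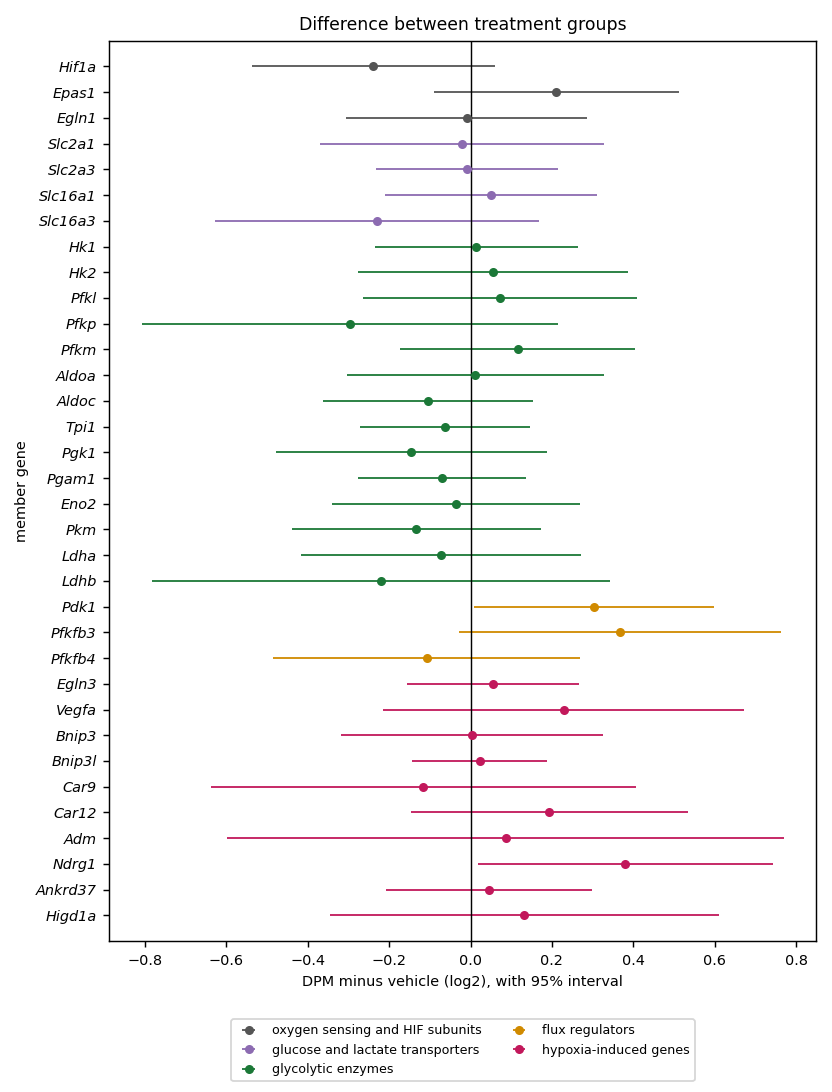
Difference of each of the 34 member genes between treatment groups (x axis, DPM minus vehicle in log2 intensity; points, limma estimate; lines, 95% interval; 3 tumours a group), coloured by role. The intervals of Pdk1 and Ndrg1 lie above 0 before adjustment, and every interval lies between -0.81 and 0.77.

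No oxygen-sensing gene passed the test. Hif1a, the HIF subunit found in most cells, was at 11.26, 11.18 and 11.25 in DPM tumours 1, 2 and 3 and at 11.47, 11.21 and 11.73 in vehicle tumours 1, 2 and 3 (the same order holds in every list of 6 values below). Vehicle tumour 3 stood highest, vehicle tumour 2 lay among the DPM tumours, and the groups overlapped. The difference was -0.24 ± 0.13 (SE, n = 3 a group; 95% interval -0.54 to 0.06), and it was -0.11 without vehicle tumour 3 and -0.37 without vehicle tumour 2.

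Epas1 encodes HIF-2 alpha, a subunit prominent in endothelium. Its values were 10.54, 10.40 and 10.05 under DPM and 10.10, 10.18 and 10.07 under vehicle. DPM tumours 1 and 2 were above the vehicle tumours and DPM tumour 3 was the lowest of the 6, for a difference of 0.21 ± 0.13 (SE), or 0.11 without DPM tumour 1 and 0.35 without DPM tumour 3. Endothelial markers were also highest in DPM tumour 1 (11 of 14 markers, with a mean deviation of 0.25 from their 6-tumour means there and -0.12 to 0.04 elsewhere), and their summed intensity ran from 6359 to 8350 under DPM and from 6458 to 7001 under vehicle. The part of endothelial content in the Epas1 values was not tested. Egln1, the main prolyl hydroxylase acting on HIF, was at 9.83, 9.41 and 9.83 under DPM and 9.75, 9.72 and 9.63 under vehicle. DPM tumour 2 was the low value and the group means were 0.01 apart.

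Among the transporters 1 of 4 had the higher mean under DPM and 3 the lower, with a median of -0.01. Slc2a1 encodes GLUT1, the glucose carrier of most tumour cells. It was at 12.41, 12.01 and 12.54 under DPM and 12.49, 12.14 and 12.38 under vehicle. The tumours numbered 2 had the lowest value in both groups, and the difference was -0.02 ± 0.15 (SE; 95% interval -0.37 to 0.33). Slc16a3 encodes MCT4, a lactate exporter of glycolytic cells, and was at 9.19, 9.07 and 9.62 under DPM and 9.29, 9.50 and 9.77 under vehicle. DPM tumour 3 was above 2 of the 3 vehicle tumours, and the difference was -0.23 ± 0.17 (SE), or -0.11 without vehicle tumour 3 and -0.39 without DPM tumour 3. Slc16a1, which encodes the lactate and pyruvate carrier MCT1, and Slc2a3, which encodes the high-affinity glucose carrier GLUT3, differed by 0.05 and -0.01.

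No glycolytic enzyme passed the test. Of the 14 measured, 5 had the higher mean and 9 the lower, and the median was -0.07 with differences from -0.30 to 0.12. At the entry step, hexokinase 2 (Hk2), the hypoxia-induced isoform that traps glucose as its phosphate, was at 8.95, 8.71 and 9.25 under DPM and 8.89, 8.82 and 9.03 under vehicle. DPM tumours held both its highest and its lowest value, and the difference was 0.05 ± 0.14 (SE). Hexokinase 1 (Hk1), the broadly expressed isoform, was at 13.43, 13.42 and 13.21 under DPM and 13.39, 13.48 and 13.15 under vehicle on the probe set used. That order was not shared by its other probe set, described further on.

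Phosphofructokinase makes the committed step of glycolysis from 3 subunit genes. The platelet-type subunit Pfkp had the lowest difference of all members. It was at 10.13, 9.74 and 10.09 under DPM and 10.37, 9.79 and 10.69 under vehicle. Vehicle tumour 3 was far above the rest and the tumours numbered 2 were lowest in both groups, so that the difference of -0.30 ± 0.22 (SE; 95% interval -0.81 to 0.21) was -0.09 without vehicle tumour 3 and -0.54 without vehicle tumour 2. The liver-type subunit Pfkl and the muscle-type subunit Pfkm had small differences of the other sign, 0.07 and 0.12. Aldolase splits the 6-carbon sugar: Aldoa, the main isoform in muscle and many tumours, differed by 0.01, and Aldoc, the brain-type isoform, by -0.10 ± 0.11 (SE). Aldoc was at 12.76, 12.78 and 12.41 under DPM and 12.67, 12.76 and 12.82 under vehicle, with DPM tumour 3 alone standing low.

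In the lower part of the pathway no enzyme passed the test and the order of tumours differed between genes. Phosphoglycerate kinase 1 (Pgk1), which makes the first ATP of the pathway, was at 12.06, 11.72 and 12.12 under DPM and 12.13, 11.88 and 12.32 under vehicle. The tumours numbered 2 were lowest and those numbered 3 highest in both groups, and the difference was -0.15 ± 0.14 (SE), or -0.02 without DPM tumour 2 and -0.26 without vehicle tumour 2. Tpi1, Pgam1 and Eno2, the isomerase, mutase and neuronal enolase, differed by -0.06, -0.07 and -0.04. Pyruvate kinase (Pkm), the last step, was at 12.44, 12.61 and 12.40 under DPM and 12.86, 12.34 and 12.64 under vehicle. Its vehicle values spanned wider than its DPM values and held both extremes, with a difference of -0.13 ± 0.13 (SE), or -0.01 without vehicle tumour 1 and -0.27 without vehicle tumour 2.

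Lactate dehydrogenase has an A subunit (Ldha), which favours lactate formation, and a B subunit (Ldhb), common in oxidative tissue. Ldha was at 13.40, 13.22 and 13.32 under DPM and 13.58, 13.02 and 13.56 under vehicle. All 3 DPM tumours fell inside the vehicle range, and the difference was -0.07 ± 0.15 (SE). Ldhb was at 10.76, 11.20 and 10.22 under DPM and 11.14, 11.09 and 10.63 under vehicle. DPM tumour 3 stood lowest, and the difference of -0.22 ± 0.24 (SE) became 0.03 without it and -0.46 without DPM tumour 2. These values are from the probe set used, and another Ldhb probe set with a smaller spread is described further on.

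Of the 3 regulators of glycolytic flux, 2 had the higher mean under DPM and 1 the lower, and none passed the test. Pdk1 encodes the hypoxia-induced kinase that blocks entry of pyruvate into the citric acid cycle. It was at 9.50, 9.42 and 9.88 under DPM and 9.28, 9.31 and 9.31 under vehicle. All 3 DPM tumours were above all 3 vehicle tumours, and DPM tumour 3 was the highest by a wide margin. The difference was 0.30 ± 0.13 (SE; 95% interval 0.01 to 0.60; limma unadjusted p = 0.0445), a ratio of 1.23. It was 0.16 without DPM tumour 3 and 0.39 without DPM tumour 2. Pdk1 was the 1 member of 34 whose groups did not overlap (2.94%), while 6.97% of all genes tested had such groups (3.49% with DPM above and 3.48% with DPM below).

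Pfkfb3 makes fructose 2,6-bisphosphate, the strongest activator of phosphofructokinase. Its values were 8.878, 9.089 and 9.211 under DPM and 8.727, 9.001 and 8.350 under vehicle. Vehicle tumour 3 was the low value and vehicle tumour 2 lay among the DPM tumours. The difference was 0.37 ± 0.17 (SE; 95% interval -0.03 to 0.76), and it was 0.20 without vehicle tumour 3 and 0.52 without vehicle tumour 2. Pfkfb4, the related enzyme, differed by -0.11.

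**Figure D2:**
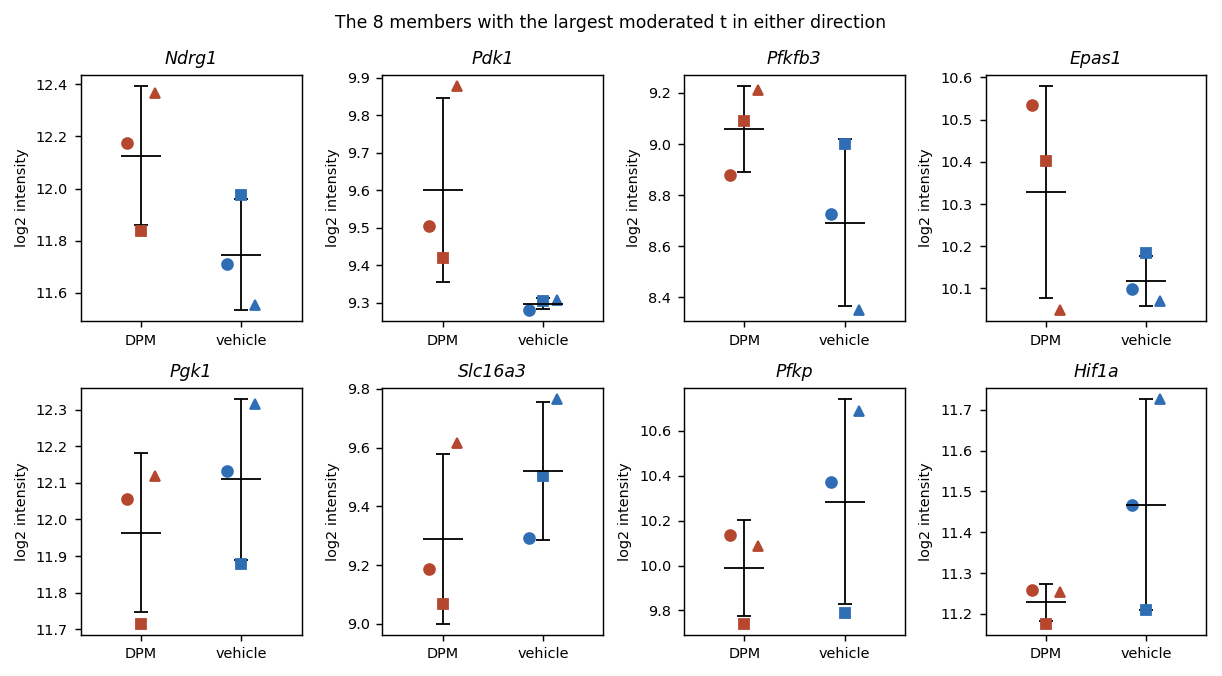
Log2 intensity of the 4 members with the most positive (Ndrg1, Pdk1, Pfkfb3, Epas1) and the 4 with the most negative moderated t (Pgk1, Slc16a3, Pfkp, Hif1a) in the 3 DPM and 3 vehicle tumours (circle, replicate 1; square, 2; triangle, 3; long bar, mean; whiskers, SD; each panel has its own axis). The groups overlap in every panel except that of Pdk1, whose vehicle tumours lie at 9.28 to 9.31 and DPM tumours at 9.42 to 9.88.

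Of the 10 hypoxia-induced genes, 9 had the higher mean under DPM and 1, Car9, the lower, yet none passed the test and the median was 0.07. It was 0.17 without DPM tumour 2. Ndrg1, a stress gene strongly induced by hypoxia, was at 12.17, 11.84 and 12.37 under DPM and 11.71, 11.97 and 11.55 under vehicle. DPM tumour 2 was below vehicle tumour 2, so the groups overlapped. The difference of 0.38 ± 0.16 (SE; 95% interval 0.02 to 0.74; limma unadjusted p = 0.0413), a ratio of 1.30, was the largest of the members in either direction. Without both tumours numbered 3, a setting chosen after the data were seen, the differences were 0.16 for Ndrg1, 0.17 for Pdk1 and 0.12 for Pfkfb3.

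Vegfa, the main growth factor for blood vessels, was at 10.82, 10.53 and 11.23 under DPM and 10.42, 10.91 and 10.56 under vehicle. DPM tumour 3 was the highest, and the difference of 0.23 ± 0.19 (SE) was 0.04 without it and 0.39 without DPM tumour 2. Adm, the vessel-dilating peptide adrenomedullin, varied most of all members. It was at 9.67, 8.50 and 9.08 under DPM and 8.68, 9.41 and 8.91 under vehicle, so that DPM tumours held both extremes of a range of 1.16 log2 units and the difference was 0.09 ± 0.30 (SE).

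The carbonic anhydrases on the cell surface, which handle the acid that glycolysis makes, differed in sign. Car9, a widely used hypoxia marker, was at 9.47, 10.08 and 9.21 under DPM and 9.79, 9.90 and 9.42 under vehicle. DPM tumour 2 was highest and DPM tumour 3 lowest, for a difference of -0.12 ± 0.23 (SE). Car12 was at 12.55, 12.31 and 12.15 under DPM and 12.19, 11.88 and 12.37 under vehicle, a difference of 0.19 ± 0.15 (SE), or 0.06 without vehicle tumour 2 and 0.30 without vehicle tumour 3. In Car12 the groups overlapped and vehicle tumour 2 was the low value.

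The remaining hypoxia-induced genes differed by 0.13 or less. Egln3, the prolyl hydroxylase that is itself induced by HIF, was at 12.21, 12.12 and 12.23 under DPM and 12.17, 12.25 and 11.98 under vehicle, 0.05 apart. Bnip3, which marks mitochondria for removal, was at 10.37, 9.94 and 10.38 under DPM and 10.39, 10.12 and 10.18 under vehicle, and its group means agreed to 0.00. Ankrd37 was at 8.34, 8.27 and 8.57 under DPM and 8.45, 8.31 and 8.28 under vehicle, 0.05 apart. Each of these 3 had groups that overlapped. Bnip3l, the relative of Bnip3, differed by 0.02 and Higd1a, a mitochondrial survival factor, by 0.13.

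The members varied more from tumour to tumour than most genes did. The SD within treatment groups had a median of 0.204 over the 34 members and 0.135 over all genes tested, and 28 of the 34 were above the latter. The SD of the median member was at the 77.7th percentile of all genes. Those above the 90th percentile were 6: Adm, Ldhb, Car9, Pfkp, Higd1a and Vegfa. For Ldhb the SD was 0.398 on the probe set used and 0.147 on the one at its own locus, described further on. Bnip3l was the steadiest, at the 6.19th percentile with a range of 0.11. A high spread was not particular to the members. The median SD was 0.189 for the other hypoxia-induced genes and 0.316 for the fibroblast markers described below, though 0.101 for other HIF regulators.

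**Figure D3:**
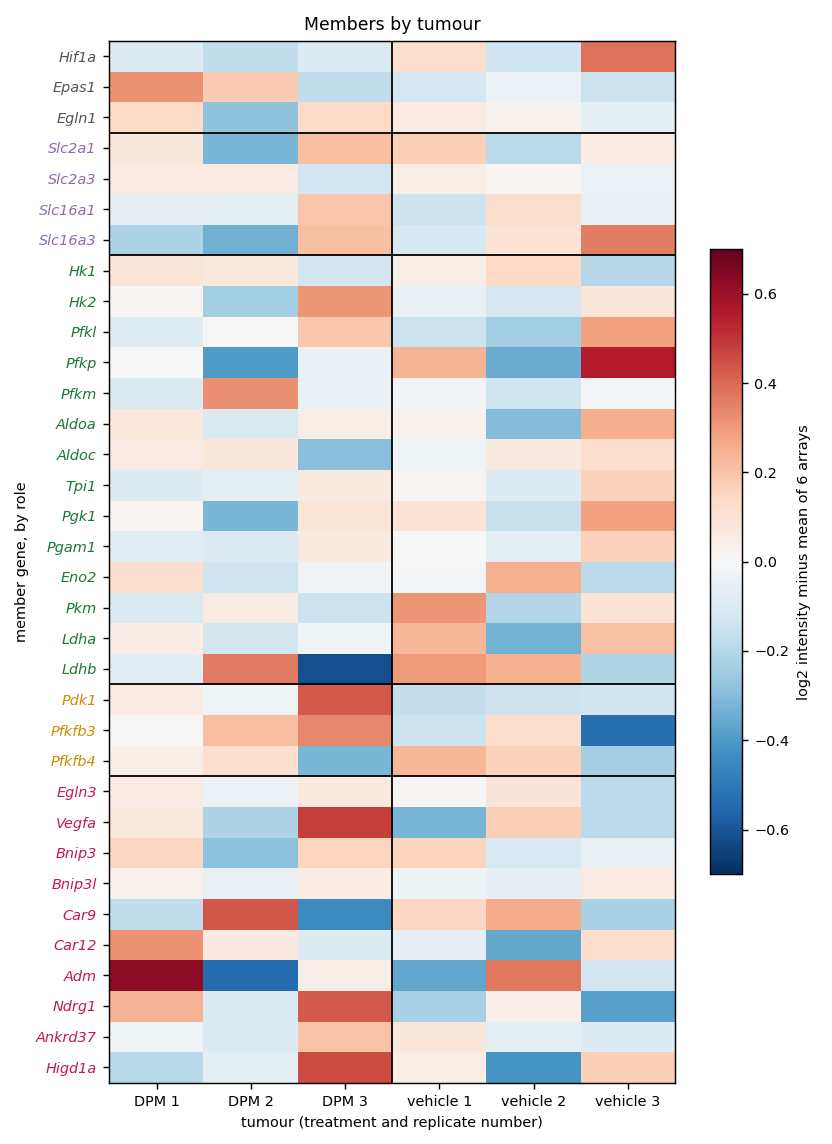
Log2 intensity of each of the 34 members in each tumour minus the mean of that gene over the 6 tumours (colour scale), with genes ordered by role and the treatment groups divided by a vertical line. The tumour holding the highest value of most glycolytic enzymes is vehicle tumour 3 (7 of 14), and of most hypoxia-induced genes DPM tumour 3 (4 of 10), where most means more than in any other tumour.

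Within tumours, the enzymes and the hypoxia-induced genes did not share an order of tumours. Averaged over members as the deviation from each gene's 6-tumour mean, the 14 glycolytic enzymes were at -0.01, -0.04 and -0.04 under DPM and 0.07, -0.09 and 0.11 under vehicle. The 10 hypoxia-induced genes were at 0.11, -0.09 and 0.14 under DPM and -0.06, -0.01 and -0.09 under vehicle. Vehicle tumour 3 thus had the highest enzymes and, level with DPM tumour 2, the lowest hypoxia-induced genes, while DPM tumour 3 had the highest hypoxia-induced genes with enzymes just below their mean. The 3 flux regulators were at 0.03, 0.10 and 0.15 under DPM and -0.03, 0.05 and -0.30 under vehicle, so they too were lowest in vehicle tumour 3. Without normalisation between arrays, an alternative added after the data were seen, the enzymes were still highest in vehicle tumour 3, at 0.27, and the hypoxia-induced genes in DPM tumour 3, at 0.28. The hypoxia-induced genes of vehicle tumour 3 were then at 0.07, the second highest, and the enzymes of DPM tumour 3 at 0.11, also the second highest. The opposite placing of enzymes and hypoxia-induced genes in vehicle tumour 3 was thus seen with quantile normalisation and not without it, whereas its flux regulators were lowest both ways (-0.20 without). These tumours were singled out after their values were seen, and no test was made of them.

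**Figure D4:**
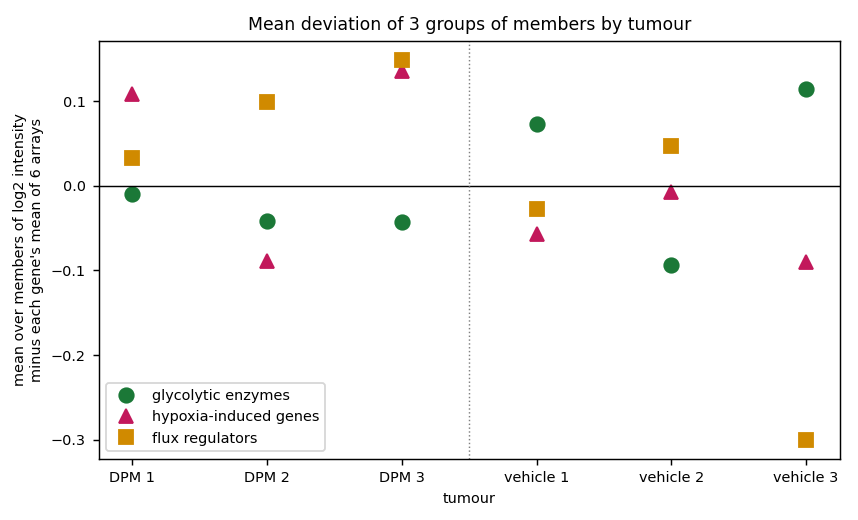
Mean over the members of a role of log2 intensity minus each gene's 6-tumour mean (y axis), for the 14 glycolytic enzymes (circles), 10 hypoxia-induced genes (triangles) and 3 flux regulators (squares) in each tumour (x axis), after quantile normalisation. In vehicle tumour 3 the enzymes are at 0.11 and the hypoxia-induced genes and flux regulators at -0.09 and -0.30.

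Counted gene by gene, 10 of the 34 members had their highest value in DPM tumour 3 and 10 in vehicle tumour 3 (29.4% each), where 19.4% and 15.5% of all genes tested did. Lowest values fell on DPM tumour 2 for 11 members and on vehicle tumour 2 for 9, against 14.3% and 20.1% of all genes. The 7 enzymes highest in vehicle tumour 3 were Pfkl, Pfkp, Aldoa, Aldoc, Tpi1, Pgk1 and Pgam1. The 4 hypoxia-induced genes highest in DPM tumour 3 were Vegfa, Ndrg1, Ankrd37 and Higd1a. The arrays of both tumours numbered 3 also had the highest deposited upper quartiles, 869 and 887 against 717 to 748 in the others, before normalisation.

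Marker genes of cell types also differed between these tumours. Basal epithelial markers had lower means under DPM for 7 of 8 genes, none past the test, and their mean deviations were -0.08, -0.29 and -0.11 under DPM and 0.09, 0.25 and 0.13 under vehicle, the one marker list whose groups did not overlap. Krt14, a basal keratin, differed by -0.77 ± 0.15 (SE; limma adjusted p = 0.867). Uneven counts were not particular to the basal markers. Means were lower under DPM for 8 of 8 fibroblast and 9 of 10 macrophage markers, and higher for 11 of 13 skeletal muscle and 10 of 14 endothelial markers. Adipocyte and proliferation markers were more even, with 6 of 11 and 5 of 11 higher. Fibroblast markers were lowest in DPM tumour 3 for 8 of 8 genes, with summed intensities of 5780 to 11293 under DPM and 9555 to 11788 under vehicle. Macrophage markers were lowest there for 9 of 10 genes and highest in vehicle tumour 3 for 6, with sums of 11753 to 15609 under DPM and 13956 to 17362 under vehicle. Skeletal muscle, itself rich in glycolytic enzymes, had marker sums of 4150 to 6296 under DPM and 3919 to 5686 under vehicle, with mean deviations of 0.42 in DPM tumour 1 and 0.30 in vehicle tumour 3. Adipocyte markers were highest in DPM tumour 1 for 9 of 11 genes, with sums of 2820 to 11250 under DPM and 3776 to 5005 under vehicle. Proliferation markers were highest in vehicle tumour 2, at 0.23, the tumour with the lowest enzymes. Luminal epithelial markers were lowest in that tumour, with mean deviations of 0.04, -0.09 and -0.02 under DPM and 0.12, -0.10 and 0.04 under vehicle. The part of cell composition in the pattern of enzymes and hypoxia-induced genes was not tested.

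A change of isoform can leave the sum of a step unaltered, so paralogs were compared within tumours, each gene centred on its own mean. For 12 of 13 listed pairs the centred difference could be formed, and in none were the DPM and vehicle tumours apart. The exact permutation test over 20 label assignments cannot give a two-sided p below 0.1, and the smallest seen was 0.2 (0.6 adjusted over the 12 pairs). It was reached by 4 pairs: Pfkp minus Pfkl shifted by -0.37, Slc16a3 minus Slc16a1 by -0.28, Epas1 minus Hif1a by 0.45 and Pfkfb4 minus Pfkfb3 by -0.47. For Epas1 minus Hif1a the values were 0.40, 0.35 and -0.08 under DPM and -0.24, 0.10 and -0.53 under vehicle, so DPM tumour 3 fell below vehicle tumour 2.

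The lactate dehydrogenase pair varied widely within each group. Ldha minus Ldhb was at 0.13, -0.49 and 0.58 under DPM and -0.07, -0.58 and 0.42 under vehicle. The shift was 0.15 (exact permutation p = 0.7). On these probe sets the tumours numbered 2 were lowest and those numbered 3 highest in each group. With the own-locus Ldhb probe set described further on, the values were 0.20, -0.17 and 0.19 under DPM and 0.26, -0.60 and 0.12 under vehicle, so the tumours numbered 2 were again lowest and those numbered 1 highest. Car12 minus Car9 shifted by 0.31 (exact permutation p = 0.6).

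Probe sets of the same gene did not always order the tumours alike. Of 8 members with several probe sets, 6 (Hk1, Pgk1, Pgam1, Ldhb, Bnip3 and Bnip3l) were represented by one whose 15 neighbours on either side in number belong mostly to genes of another chromosome, where 96.8% of the probe sets checked sit among genes of their own chromosome. Which RNA such a probe set measures was not tested. The probe sets at the genes' own loci were therefore read as well, a choice made after the data were seen.

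Hk1 at its own locus was at 11.10, 11.16 and 11.36 under DPM and 11.32, 10.93 and 11.50 under vehicle. Vehicle tumour 3 was then the highest and vehicle tumour 2 the lowest, the reverse of the brighter probe set, which rests on 1 accession. The difference was -0.05 ± 0.15 (SE). Ldhb at its own locus was at 9.21, 9.41 and 9.14 under DPM and 9.33, 9.64 and 9.45 under vehicle, with the same difference of -0.22 and a smaller error of 0.12 (SE). DPM tumours 1 and 3 were then lowest, and DPM tumour 2 alone overlapped the vehicle tumours. DPM tumour 3 was lowest on both probe sets, over a range of 0.50 at the own locus and 0.98 on the brighter one.

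**Figure D5:**
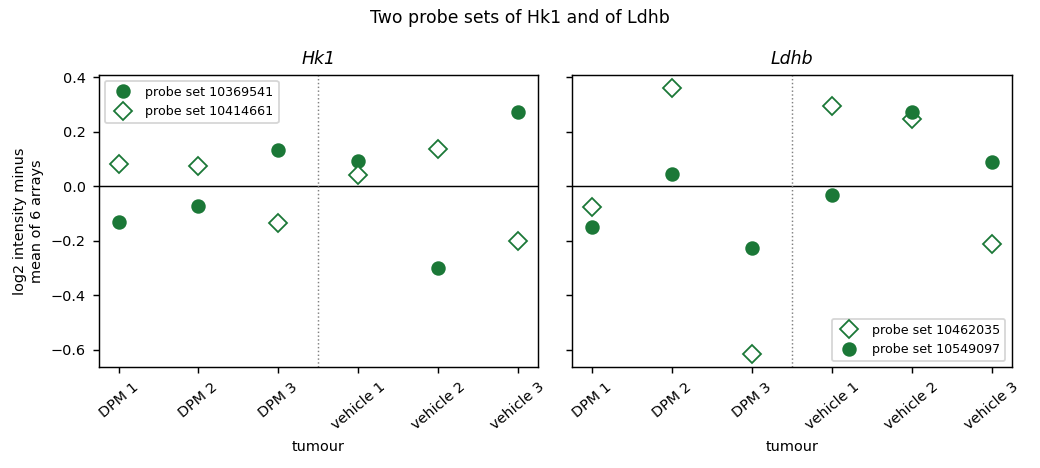
Log2 intensity minus the 6-tumour mean (y axis) on the own-locus probe set (filled circles) and the brighter probe set (open diamonds) of Hk1 and Ldhb in each tumour (x axis). In Hk1 the order of vehicle tumours 2 and 3 is turned round, and in Ldhb DPM tumour 3 lies at 9.14 on the own-locus and 10.22 on the brighter probe set before centring.

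With own-locus probe sets, Bnip3 was at 9.29, 8.98 and 9.47 under DPM and 9.28, 9.07 and 9.30 under vehicle, a difference of 0.03, and Pgk1, Pgam1 and Bnip3l differed by -0.15, -0.06 and 0.04. The 14 enzymes then averaged -0.04, -0.07 and 0.01 under DPM and 0.06, -0.13 and 0.17 under vehicle, with 4 higher and 10 lower under DPM. Vehicle tumour 3 remained the highest for the enzymes as a whole, with 8 of 14 at their highest there, and vehicle tumour 2 the lowest, with 7. The hypoxia-induced genes averaged 0.11, -0.09 and 0.14 under DPM and -0.07, -0.01 and -0.08 under vehicle, with DPM tumour 2 and vehicle tumour 3 again lowest and nearly level.

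No gene in the rest of the pathway passed the test either. Other HIF regulators (13 measured, 12 of them tested) had 6 higher and 7 lower means under DPM and a median of -0.00, with Cited2, a competitor of HIF for its coactivator, at -0.17 ± 0.14 (SE) and Vhl, the ligase subunit that destroys HIF alpha, at -0.06 ± 0.09 (SE). Other hypoxia-induced genes (27 of 29 measured) had 14 higher and 13 lower and a median of 0.02, with Ier3, an early response gene, at -0.44 ± 0.19 (SE) and Plod2, a collagen lysyl hydroxylase, at -0.53 ± 0.27 (SE). The counts of that wider list were near even, where 9 of the 10 members had the higher mean, and neither count was tested. Other sugar and lactate transporters (11) had 5 higher and 6 lower, with Slc16a7, the pyruvate carrier MCT2, at -0.22 ± 0.11 (SE) and Slc5a1, the sodium-coupled glucose carrier, at 0.45 ± 0.26 (SE). Pentose phosphate enzymes (7 of 8) had 4 higher and 3 lower, with Taldo1 at 0.14 ± 0.10 (SE) and Rpe at -0.13 ± 0.10 (SE). None of these genes passed the test.

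Gpd1 had the smallest p of the other pathway genes described here. Of 20 other glycolytic and gluconeogenic enzymes measured, 14 had the higher mean under DPM and 6 the lower, with a median of 0.02, and 0 passed the test. Gpd1, which turns a glycolytic intermediate into glycerol phosphate, was at 10.97, 10.85 and 10.86 under DPM and 10.36, 10.03 and 10.45 under vehicle. All DPM tumours were above all vehicle tumours, by 0.62 ± 0.12 (SE; limma adjusted p = 0.817). Gpd1 is also abundant in fat and muscle. Adipocyte markers had mean deviations of 0.96, -0.45 and -0.45 under DPM and 0.19, -0.05 and -0.20 under vehicle. Those of skeletal muscle markers were 0.42, -0.17 and -0.06 under DPM and -0.29, -0.21 and 0.30 under vehicle. The part of those tissues in the Gpd1 values was not tested. Fbp2, the muscle fructose bisphosphatase, differed by 0.23 ± 0.19 (SE).

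Among 13 genes for the entry of pyruvate into mitochondria, 9 had the higher mean under DPM and 4 the lower, the median was 0.06 and 0 passed the test. In 3 of the 13, Pdk2, Pdk4 and Dlat, all DPM tumours were above all vehicle tumours, against 3.49% of all genes. Pdk2 encodes a second kinase that blocks pyruvate dehydrogenase, and was at 11.49, 11.51 and 11.42 under DPM and 11.23, 11.18 and 10.99 under vehicle, 0.34 ± 0.09 (SE) apart (limma adjusted p = 0.997). Pdk4, the kinase induced by fasting, was at 9.34, 7.80 and 7.68 under DPM and 7.66, 7.06 and 7.35 under vehicle, 0.91 ± 0.41 (SE) apart. DPM tumour 1, where the adipocyte markers were highest, was far above the others in Pdk4, and the part of fat in that value was not tested. Dlat, a core subunit of pyruvate dehydrogenase named because its groups were apart, differed by 0.12 ± 0.08 (SE).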

How the data were processed

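RNA of 6 mammary tumours (3 DPM, 3 vehicle) was measured on 1-colour Affymetrix arrays from 100 ng of total RNA labelled with biotin, per the labels' protocols. For 35556 probe sets the authors deposited linear intensity values, 1 an array, as whole numbers. Background correction, probe summary, scaling and genome build are not given in the sources used here. Deposited intensity medians ran from 270.0 to 301. Detection calls were not used, and low genes are not read as absent.

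After a floor of 1, log2 values were quantile-normalised. GEO's platform annotation named 1 gene for 21789 probe sets, several for 1621 (left out) and none for 12146. Symbols were updated through Entrez identifiers for 21698. The 999 genes with several probe sets were read from the one with the highest mean. A filter at the 25th percentile of mean level left out 4985 of 19938 genes. The fit used limma 3.58.1 in R 4.3.3 (eBayes with trend, two-sided) and was tested on simulated data. The number of arrays limits the precision, and the labels name no batch.

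The members, lists and tests were chosen with earlier results of these data known. Values per tumour were given for the 4 members with the highest and the 4 with the lowest moderated t and for a fixed list of 24 members, of which Gapdh had no value, and up to 2 genes with the smallest p were named from each other pathway list. Intervals have a confidence level of 95%. Alternatives were other filters, scalings, probe set rules and variance models, leaving out each array, and a block for replicate number. Promoters were taken from RefSeq (GRCm38.p6).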

Additional observations from a re-analysis of the deposited data

How the results depend on the processing

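Across 18 alternatives, 15 planned and 3 added after the data were seen, limma called 0 genes and 0 members, as in the reported fit, which had 578 genes at an unadjusted p under 0.05. The smallest limma adjusted p over all genes ran from 0.184 to 0.864. Of 413 values of the 23 members described by tumour, 376 kept their direction and 37 reversed, the latter in 12 members. The 376 include values that could not reverse. With other filters, other eBayes settings or the block for replicate number, the differences equal the reported ones by construction. With array weights Hk2 was at -0.0144, Bnip3 at -0.106, Car9 at 0.00232 and Ankrd37 at -0.0124. Without both tumours numbered 3, Egln3 was at -0.0431, Hk1 at -0.0120, Hk2 at -0.0285, Aldoc at 0.0508, Ldha at 0.0108, Bnip3 at -0.0959 and Ankrd37 at -0.0748. Hk1 was at -0.0161 with the mean of its probe sets and -0.0459 at its own locus, and Bnip3 at -0.00141 without normalisation between arrays. With each array left out in turn, the differences that changed sign ran from -0.0832 to 0.0857 for Hk1, -0.0855 to 0.186 for Hk2, -0.0701 to 0.148 for Bnip3, -0.362 to 0.0750 for Car9, -0.0421 to 0.106 for Ankrd37, -0.205 to 0.377 for Adm, -0.0803 to 0.129 for Egln1, -0.131 to 0.133 for Slc2a1, -0.170 to 0.0149 for Aldoc, -0.456 to 0.0318 for Ldhb, -0.255 to 0.0244 for Ldha and -0.0230 to 0.114 for Egln3. The runs with arrays left out used the reported probe sets and were not repeated with those at the genes' own loci, which matters for Hk1 and Ldhb. In the same runs the median of the hypoxia-induced genes went from 0.0396 to 0.173 and that of the glycolytic enzymes from -0.120 to -0.0244. The former was 0.0341 with array weights and 0.0226 without both tumours numbered 3. Paralog pairs with treatment groups apart, 0 as reported, numbered 1 with median centring, 1 without normalisation, 2 without both tumours numbered 3 and 0 to 4 with each array left out. Groups of fewer tumours come apart more easily whatever the labels, so counts from fewer arrays cannot be compared with the reported one. Same-numbered DPM and vehicle tumours deviated with correlations of -0.12, 0.11 and 0.37, and differently numbered ones with -0.32 to 0.22. The highest was that of the tumours numbered 3. The numbers were not taken as a pairing, and these correlations do not settle whether they are one. With the replicate number as a block 0 genes were called (smallest limma adjusted p = 0.501). The causes of these changes were not tested.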
